A study of Mus musculus with 12 samples.

Results

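The semaphorins, their plexin receptors and the neuropilin co-receptors were examined in RNA-Seq values of mouse osteoblasts. Members were chosen by gene symbol, with earlier results of these data known. Of 25897 gene names 31 matched, namely 20 semaphorins, 9 plexins and 2 neuropilins. Of these, 25 (16 semaphorins, 7 plexins and 2 neuropilins) reached an FPKM of 1 or more in some of the 12 libraries. FPKM is a fragment count divided by transcript length and by the library's mapped total, so FPKM values of different genes can be set beside each other. The 6 members below that level were *Plxna4* (at most 0.955 FPKM), *Plxnb3* (at most 0.0429), *Sema3e* (at most 0.614), *Sema3f* (at most 0.926), *Sema6b* (at most 0.460) and *Sema5b*, which was listed at 0 throughout.

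The study examined how parathyroid hormone (PTH) alters gene expression of osteoblasts, and what the protease inhibitor gene *Slpi*, which PTH raised, does in osteoblastic cells. In the first experiment, 7AAD- Lin- CD45- ECFP+ cells were sorted from collagenase and EDTA digests of crushed bones of female Col2.3-ECFP mice, in which a type I collagen promoter drives the cyan protein ECFP. All mice were 12 weeks old when treated, and received vehicle or PTH(1-34) for 3 weeks on 5 days per week, the hormone at 40 µg/kg per day, with harvest 24 h after the last injection (3 libraries per group). In the second, MC3T3-E1 cells, a preosteoblast line from mouse calvaria, carried the retroviral vector pMX-IRES-Puro either empty (mock) or with mouse *Slpi* cDNA (3 libraries per group). All cells had been selected with puromycin for stable transformants, and the methods do not say whether these were kept as a pool. The methods say of the study in general that biological replicates came from separate mice, and neither they nor the labels say whether the MC3T3-E1 libraries came from separate cultures, so that *p* values there measure only the spread between these libraries. The experiments differed in cells, library kits by the labels, and normalization, and values of one were set beside the other without a test.

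Semaphorins are ligands known best for steering growing axons, and they also act in vessels, immune cells and bone. The *Sema3* members are secreted and mostly need a neuropilin, which lacks a signalling domain of its own, to reach a plexin, whereas the other members are held in the membrane and most bind plexins directly. Plexins carry a GTPase-activating domain for small Ras-like GTPases in the cell. In bone, SEMA3A from osteoblast-lineage cells is known to restrain osteoclasts, and SEMA4D from osteoclasts is known to act on Plexin-B1 of osteoblasts.

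Promoters of the following members were drawn up because members with high levels or large differences are among them. RefSeq promoters (GRCm38.p6) were matched by symbol for 26 of the 31 members, with 37 starts in all, and not for *Plxna1*, *Plxna4*, *Sema3b*, *Sema3f* and *Sema6a*. The sequences run 5′ to 3′ over the 250 bases before the start. Bases that GENCODE places in an exon of the gene are left out, 32 for *Nrp2* and 47 for *Plxnb1*, and a second start of *Plxnb2* is not shown. Capitals mark matches, on either strand, to a cAMP response element core (TGACGT), a TCF/LEF motif (CTTTGAT), a RUNX motif (TGTGGT) or a GC box (GGGCGG).
Sema7a (chr9:57939862-57940111, + strand): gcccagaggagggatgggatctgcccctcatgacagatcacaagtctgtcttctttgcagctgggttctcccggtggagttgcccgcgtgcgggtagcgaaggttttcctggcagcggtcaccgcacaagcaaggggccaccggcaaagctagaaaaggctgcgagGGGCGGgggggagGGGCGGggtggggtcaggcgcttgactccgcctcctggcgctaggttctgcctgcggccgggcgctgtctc
Plxnb1 (chr9:109095186-109095388, + strand): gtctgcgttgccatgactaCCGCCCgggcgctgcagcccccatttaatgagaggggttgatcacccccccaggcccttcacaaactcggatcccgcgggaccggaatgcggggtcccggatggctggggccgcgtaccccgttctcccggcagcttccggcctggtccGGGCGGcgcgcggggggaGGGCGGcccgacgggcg
Plxnb2 (chr15:89180789-89181038, - strand): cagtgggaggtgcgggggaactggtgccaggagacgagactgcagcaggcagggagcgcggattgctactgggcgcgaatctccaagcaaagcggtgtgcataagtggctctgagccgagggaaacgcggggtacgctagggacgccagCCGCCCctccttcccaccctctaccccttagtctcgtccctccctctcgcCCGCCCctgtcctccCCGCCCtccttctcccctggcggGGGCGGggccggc
Nrp2 (chr1:62703067-62703284, + strand): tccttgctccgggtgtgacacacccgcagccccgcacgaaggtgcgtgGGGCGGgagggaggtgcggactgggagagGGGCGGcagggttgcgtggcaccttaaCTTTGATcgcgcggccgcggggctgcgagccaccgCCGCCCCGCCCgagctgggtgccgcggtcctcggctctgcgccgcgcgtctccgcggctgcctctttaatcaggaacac
Sema3d (chr5:12382916-12383165, + strand): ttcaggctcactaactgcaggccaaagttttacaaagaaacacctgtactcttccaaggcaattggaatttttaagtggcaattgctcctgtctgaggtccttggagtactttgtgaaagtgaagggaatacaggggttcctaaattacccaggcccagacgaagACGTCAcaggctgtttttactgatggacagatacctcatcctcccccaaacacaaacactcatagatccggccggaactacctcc
The GC box was present before 27 of the 37 member starts (73.0%), against 32.7% of all 32851 promoters of the same length. A cAMP response element core lay before 1 of the 37, *Sema3d*, at 85 bases before the start, against 6.47% of all promoters. The TCF/LEF motif was found before *Nrp2* alone, at 146 bases, against 3.21% of all promoters, and the RUNX motif before 5 of the 37 (13.5%), against 14.0%. These are descriptions of letters in a window, and no site was tested.

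Depth in reads is unknown from FPKM. Sums of FPKM ranged from 400839 to 462460 per library of sorted osteoblasts and from 541932 to 599746 in MC3T3-E1 cells. Depth relative to replicate 1 of the control group was estimated from the most common FPKM ratio to that library among genes of low FPKM. It ranged from 0.788 to 1.40 in sorted osteoblasts and from 0.869 to 1 in MC3T3-E1 cells. *Slpi* itself rose from 1.64, 2.38 and 2.62 FPKM with vehicle to 37.5, 19.8 and 27.2 with PTH, and from 377, 396 and 386 in mock to 2105, 1973 and 1848 in *Slpi* cells. All 14 osteoblast markers passed the filter on low values in sorted cells, among them *Bglap* (osteocalcin, 6963 to 14280 FPKM). Among the highest values were those of *Col1a1*, the collagen gene whose promoter marks these cells, which was listed at 26217, 24170 and 0 FPKM with vehicle and at 0 in all PTH libraries. *Col1a2* was listed at 26655, 24544 and 0 FPKM and likewise at 0 with PTH, and such zeros can be failed estimates. In MC3T3-E1 cells *Col1a1* stood at 7237 to 8740 FPKM and *Bglap* at 1.05 to 2.85.

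Markers of other cells also differed between the sorted groups. Summed FPKM of 12 T and NK lymphocyte markers ranged from 118 to 197 with vehicle and from 1.95 to 24.3 with PTH. At a limma adjusted *p* under 0.05, 6 of the 8 tested fell, where 8.85% of all tested genes were lower. Among the 6, *Cd3d* and *Xcl1* reached 1 FPKM with vehicle alone, so that they had to differ and nothing is read from this count. Summed neutrophil markers ranged from 378 to 471 with vehicle and reached 2363, 1972 and 703 in PTH replicates 1, 2 and 3. Of these 11 markers 7 rose, where 6.38% of all tested genes were higher. Platelet markers ranged from 3.90 to 7.74 against 193, 158 and 6.64, and cardiac markers, from 9.03 to 19.9 against 9.77, 3545 and 0.362. Mast cell markers, among which *Fcer1a*, *Ms4a2* and *Mcpt4* were at 0, ranged from 49.5 to 76.4 against 5.12 to 13.6, a sum that was mostly *Cpa3* with vehicle. Of the 3 tested, *Cpa3* fell (log2 fold change -3.90), *Hdc* rose (1.35) and *Kit* did not pass (-0.11). Osteoclast markers, mostly *Ctsk*, ranged from 159 to 167 against 262 to 295. Of the 3 tested, *Ctsk* rose (log2 fold change 0.77), and *Acp5* (1.09) and *Mmp9* (-0.56) did not pass. The rest of that list stayed below 1 FPKM, and *Ctsk* was also at 75.3 to 81.9 FPKM in MC3T3-E1 cells. The sums of B cell (6.96 to 9.47 against 3.75 to 9.95), endothelial (6.84 to 7.96 against 1.80 to 11.1), macrophage (18.7 to 28.9 against 15.7 to 34.8), glial (9.70 to 14.7 against 8.16 to 16.2) and stromal markers (53.7 to 63.9 against 55.5 to 66.4) overlapped between groups. In these lists *Cd14* (macrophage, log2 fold change 0.97) and *Lepr* (stromal, 0.53) rose with PTH, and no other tested gene passed. Erythroid markers ranged from 124 to 168 against 164 to 217. In such bulk RNA, fewer cells of a type and less RNA per cell cannot be told apart.

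In sorted osteoblasts the semaphorin transcripts were led by *Sema7a*, whose product binds Plexin-C1 and integrins. It made up 26.1% of the summed semaphorin FPKM with vehicle and 32.9% with PTH (mean of 3 libraries). With vehicle it was followed by *Sema4d* (39.8 ± 3.03 FPKM, SD, n = 3) and *Sema3d* (39.0 ± 4.43), whose ranges overlapped, then by *Sema3b* (29.1 ± 4.15), *Sema6d* (16.6 ± 1.499) and *Sema5a* (13.01 ± 1.17). *Sema3a*, known as the bone-protective semaphorin, was near the floor of the test at 1.07 ± 0.385 FPKM with vehicle and 1.11 ± 0.176 with PTH. The summed FPKM of the 20 semaphorins was 239 ± 17.4 with vehicle and 292 ± 39.1 with PTH, and that of the 9 plexins was 32.0 ± 3.82 and 52.2 ± 7.02 (SD, n = 3 each). In each of the 6 libraries the semaphorin sum was the larger, and the plot of levels in sorted osteoblasts shows where the members stand.

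**Figure D1:**
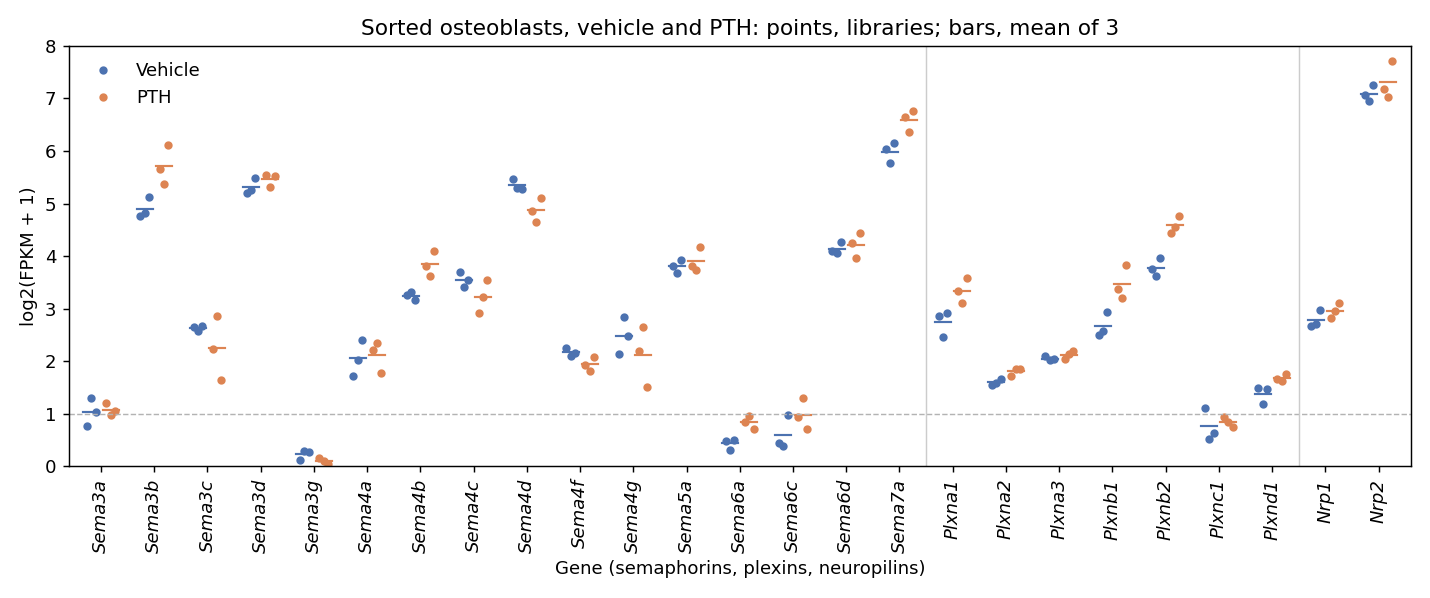
Levels of 25 semaphorin, plexin and neuropilin genes in sorted osteoblasts, as log2(FPKM + 1) on the vertical axis, with 1 point per library, a bar at the mean of 3 libraries per group and a dashed line at an FPKM of 1. *Nrp2* and *Sema7a* stand highest, and the PTH points of *Sema7a*, *Sema3b*, *Sema4b*, *Plxnb1* and *Plxnb2* lie above all vehicle points.

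With PTH, 5 of the 23 tested members rose, the semaphorins *Sema7a*, *Sema3b* and *Sema4b* and the B-class plexins *Plxnb1* and *Plxnb2*, by 1.53 to 1.89 times in mean FPKM, and none fell. The 5 are 21.7% of the tested members at a limma adjusted *p* under 0.05, where 6.38% of all 13004 tested genes were higher and 8.85% lower. At an unadjusted *p* under 0.05 the counts of members were 6 higher, with *Plxna1*, and 1 lower, *Sema4d*. By that rule 2077 of all 13004 tested genes were higher and 2276 lower. No member changed at least 2-fold at an unadjusted *p* under 0.05, a rule that 1.24% of all genes met upwards and 4.35% downwards. The groups did not overlap for 8 members higher with PTH (34.8%, against 19.5% of all genes) and for 2 lower (8.70%, against 20.9%). An exact two-sided permutation test of 1 gene goes no lower than *p* = 0.10 with 3 libraries a side. The median log2 fold change of FPKM + 1 over the 23 members was 0.14, against 0.01 over all genes. The log2 fold change was above 0 in 7 of 7 plexins, 9 of 14 semaphorins and 2 of 2 neuropilins, against 50.6% of all genes. Among the 9 was *Sema6c*, which passed the filter through a PTH library alone.

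Of the ligands, *Sema7a* (chromosome 9, 57940112 to 57962865 of GRCm38) was at 64.3, 54.0 and 69.7 FPKM with vehicle and at 99.6, 81.3 and 107 with PTH. Every PTH library thus lay above every vehicle library, and the log2 fold change was 0.61 (standard error 0.144, adjusted *p* = 0.0367). *Sema3b* (chromosome 9, 107597674 to 107609229), a secreted ligand of both neuropilins, was at 26.1, 27.3 and 33.8 FPKM with vehicle and at 49.6, 40.5 and 68.4 with PTH. Its groups were apart and its PTH values spread widely, with a log2 fold change of 0.82 (standard error 0.201, adjusted *p* = 0.0396). It passed *Sema4d* in the order of levels, and stood second with PTH at 17.9% of semaphorin FPKM, with a range that overlapped that of *Sema3d*. *Sema4b* (chromosome 7, 80186841 to 80226527), a membrane semaphorin, was at 8.58, 8.93 and 8.002 FPKM with vehicle and at 12.9, 11.3 and 16.1 with PTH. The vehicle libraries were close together and all lower, and the log2 fold change was 0.60 (standard error 0.145, adjusted *p* = 0.0388).

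*Sema4d* (chromosome 13, 51685529 to 51793747), the ligand of Plexin-B1 and also a surface protein of T cells, was at 43.3, 38.02 and 38.01 FPKM with vehicle and at 28.0, 23.97 and 33.5 with PTH. All PTH libraries were lower, but the log2 fold change of -0.48 (95% interval -0.81 to -0.15) did not pass at an adjusted *p* of 0.0609. It passed with quantile normalization (adjusted *p* = 0.0347), with FPKM rescaled to one sum (0.0386) and without PTH replicate 3 (0.0288), and over all alternatives the adjusted *p* lay between 0.0288 and 0.192. T cell markers were lower with PTH as well, and their part in the *Sema4d* values was not tested. Among the PTH libraries *Sema4d* was highest in replicate 3, where the summed T and NK markers were lowest. Among the vehicle libraries *Sema4d* was highest in replicate 1, where these summed markers were highest (197 FPKM). *Sema4f*, a further membrane semaphorin, was at 3.29 to 3.73 FPKM with vehicle and at 2.51 to 3.24 with PTH without passing (log2 fold change -0.23, adjusted *p* = 0.292).

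The other ligands did not pass, and their intervals allow changes of some size. *Sema3d*, the third ligand by level with vehicle, was at 35.8, 37.2 and 44.1 FPKM against 45.5, 38.7 and 45.0 (log2 fold change 0.14, 95% interval -0.14 to 0.42). *Sema6d* (15.6 to 18.4 FPKM with vehicle, 14.6 to 20.6 with PTH) and *Sema5a* (11.8 to 14.2 and 12.4 to 17.1) overlapped, with log2 fold changes of 0.08 and 0.11. *Sema4c*, a ligand of Plexin-B2, had a log2 fold change of -0.32 (95% interval -0.74 to 0.10). *Sema3c*, which acts through neuropilins and Plexin-D1, was at 4.94 to 5.37 FPKM in the vehicle libraries but at 3.68, 6.23 and 2.14 in the PTH libraries, so that its vehicle range lay inside its PTH range. *Sema4g* (log2 fold change -0.37), *Sema4a* (0.06) and *Sema3a* (0.04) did not pass either. *Sema6c* passed the filter through PTH replicate 2 alone (1.47 FPKM), and *Sema3g* (at most 0.228 FPKM) and *Sema6a* (0.238 to 0.419 FPKM with vehicle, 0.634 to 0.952 with PTH) were below it.

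Among the receptors, *Plxnb2* (chromosome 15, 89155549 to 89180788), the receptor of SEMA4C, was the most abundant plexin in both groups. Its FPKM was 12.4, 11.2 and 14.6 with vehicle and 20.7, 22.6 and 26.0 with PTH. The lowest PTH library stood clear of the highest vehicle library, and the log2 fold change was 0.81 (standard error 0.137, adjusted *p* = 0.0184). *Plxnb1* (chromosome 9, 109095389 to 109119917), the receptor of SEMA4D, was at 4.64, 4.97 and 6.60 FPKM with vehicle and at 9.35, 8.15 and 13.1 with PTH. Again the groups were apart, with the widest spread among PTH libraries, and the log2 fold change was 0.80 (standard error 0.200, adjusted *p* = 0.0419). Among the tested members, exons of *Plxnb1*, *Plxna1* and *Sema4c* overlap a gene on the other strand. SMART-Seq libraries, which do not keep the strand, cannot tell reads of such a pair apart. Exons of *Plxnc1*, *Nrp1* and *Sema4a* overlap a gene on the same strand.

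*Plxna1* (chromosome 6, 89316314 to 89362620), an A-class plexin that pairs with neuropilins, was at 6.28, 4.53 and 6.53 FPKM with vehicle and at 9.09, 7.62 and 10.98 with PTH. The groups did not overlap, and the log2 fold change of 0.59 (95% interval 0.17 to 1.02) did not pass at an adjusted *p* of 0.0663. *Plxna2* (1.92 to 2.15 against 2.29 to 2.61 FPKM) and *Plxnd1*, the receptor of SEMA3E (1.28 to 1.80 against 2.09 to 2.38 FPKM), likewise did not overlap and did not pass, at log2 fold changes of 0.21 and 0.30. *Plxna3* stood at 3.13 ± 0.112 and 3.35 ± 0.250 FPKM (SD, n = 3 each). *Plxnc1*, the plexin of SEMA7A, stayed at 0.436 to 1.17 FPKM with vehicle and 0.669 to 0.920 with PTH, and passed the filter through vehicle replicate 1 alone. The order of plexin levels was *Plxnb2*, then *Plxna1* and *Plxnb1* with overlapping ranges, then *Plxna3*, *Plxna2*, *Plxnd1* and *Plxnc1*. With PTH the ranges of *Plxna2* and *Plxnd1* overlapped, and with vehicle they did not.

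The neuropilins were almost all *Nrp2* (chromosome 1, 62703285 to 62818695), the receptor of several class 3 semaphorins and of VEGF-C, which made up 95.8% of neuropilin FPKM with vehicle. Its FPKM of 133, 123 and 152 with vehicle and 145, 129 and 209 with PTH was the highest of any member. The groups overlapped, the highest value was that of PTH replicate 3, and the log2 fold change of 0.21 (95% interval -0.23 to 0.65) did not pass (adjusted *p* = 0.449). *Nrp1* was at 5.39, 5.53 and 6.81 FPKM with vehicle and at 6.02, 6.71 and 7.56 with PTH (log2 fold change 0.17, adjusted *p* = 0.428).

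The 5 members that rose, and *Nrp2*, had their highest value in PTH replicate 3, the PTH library with the lowest summed neutrophil, platelet, T cell and cardiac markers. Of the other tested members, *Nrp1*, *Plxna1*, *Plxna2*, *Plxna3*, *Plxnd1*, *Sema4c*, *Sema4d*, *Sema4f*, *Sema5a* and *Sema6d* had their highest PTH value there too. *Plxnc1*, *Sema3a*, *Sema3c*, *Sema3d*, *Sema4a*, *Sema4g* and *Sema6c* did not. PTH replicate 3 also had the largest sum of FPKM, 462460. *Bglap* was also highest there, at 14280 FPKM against 7978 and 7017 in PTH replicates 1 and 2. Of the 14 osteoblast markers, 2 rose with PTH, *Alpl* and *Spp1*, by 0.60 and 0.81 on the log2 scale, and 0 fell in limma (7 and 2 at an unadjusted *p* under 0.05). The 2 lower ones were *Col1a1* and *Col1a2*, whose listed zeros can be failed estimates. The part of osteoblast content in the members' values was not tested. Without PTH replicate 3 the log2 fold changes of the 5 members lay above 0 and the calls of *Plxnb2* and *Sema3b* held. Leaving out vehicle replicate 1 or vehicle replicate 2 ended all 5 calls, with adjusted *p* up to 0.0857 for *Plxnb2* and up to 0.143 for *Plxnb1*. In these same fits 1 and 0 of all tested genes were higher, and 0 and 0 lower, in limma at an adjusted *p* under 0.05, against 1481 and 1415 higher at an unadjusted *p* under 0.05, 6 members among them in each.

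**Figure D2:**
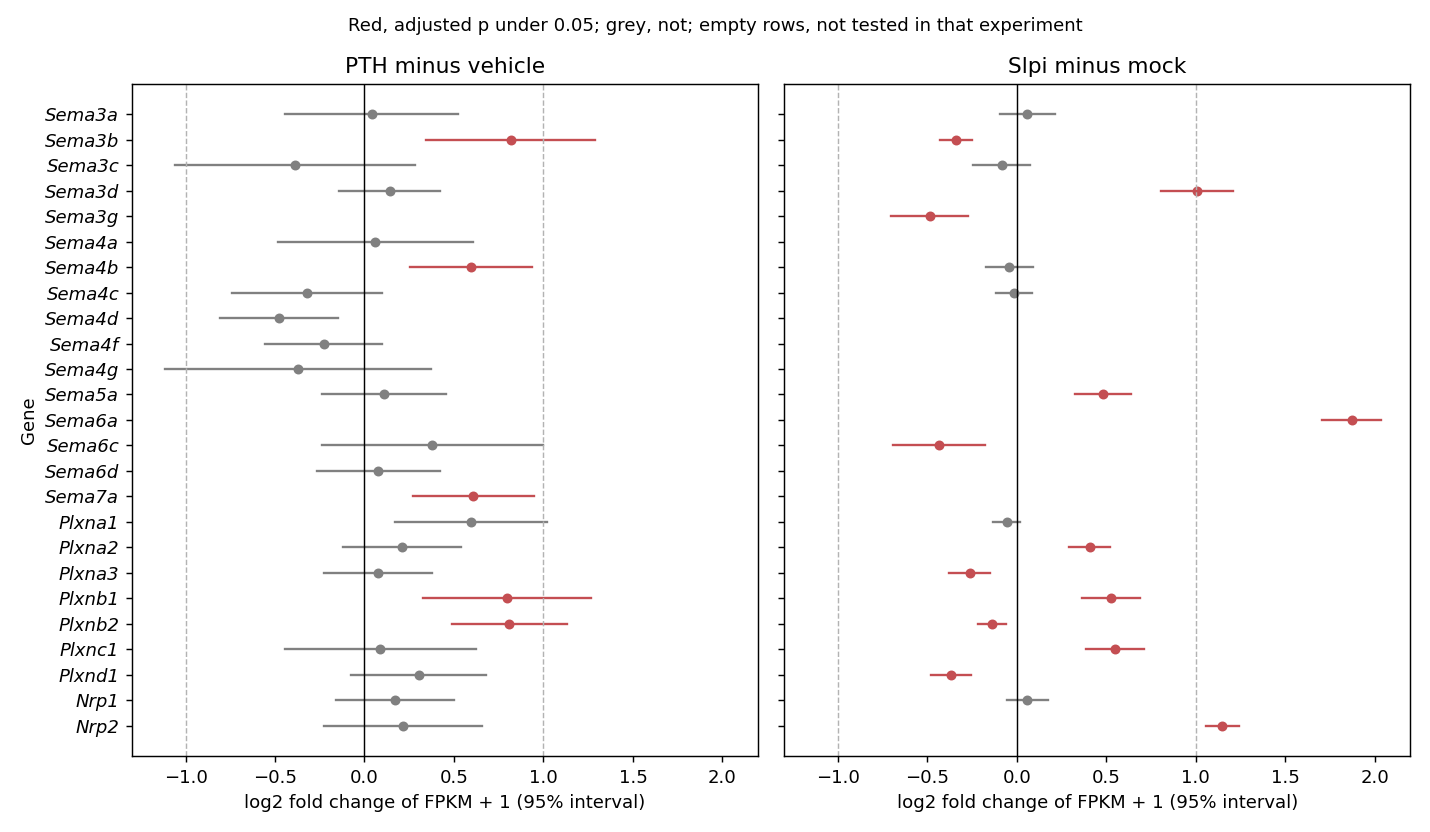
Log2 fold change of FPKM + 1 for each tested member with its 95% interval, PTH minus vehicle in sorted osteoblasts on the left and *Slpi* minus mock in MC3T3-E1 cells on the right, in red where the limma adjusted *p* was under 0.05. On the left 5 members are red and all lie above 0, with wide intervals, while on the right 7 lie above and 6 below 0, and *Sema6a*, *Nrp2* and *Sema3d* lie beyond 1.

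MC3T3-E1 cells had another set of ligands. *Sema3a* led with 47.1 ± 1.90 FPKM in mock cells (SD, n = 3), 44.9% of semaphorin FPKM, followed by *Sema3c* (16.5 ± 1.21), *Sema3b* (15.1 ± 0.272), *Sema4c* (10.3 ± 0.369) and *Sema4b* (5.89 ± 0.239), each with a range apart from the next. *Sema7a*, first in sorted osteoblasts, was at 0.0620 to 0.179 FPKM over the 6 libraries, and *Sema4d* was at 0.325 to 0.597. *Sema6d* (at most 0.0360 FPKM), *Sema4f* (at most 0.114), *Sema4a* (at most 0.337) and *Sema4g* (at most 0.669) were below the filter too. The plexin sum, in contrast to sorted cells, exceeded the semaphorin sum, at 204 ± 2.61 against 105 ± 2.13 FPKM in mock cells (SD, n = 3 each). *Plxnb2* was again first (94.97 ± 1.45 FPKM), then *Plxnd1* (48.8 ± 1.81), *Plxna1* (35.2 ± 0.261), *Plxna3* (14.6 ± 0.761), *Plxna2* (5.30 ± 0.0956), *Plxnb1* (3.55 ± 0.0422) and *Plxnc1* (1.65 ± 0.130), all with separate ranges.

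**Figure D3:**
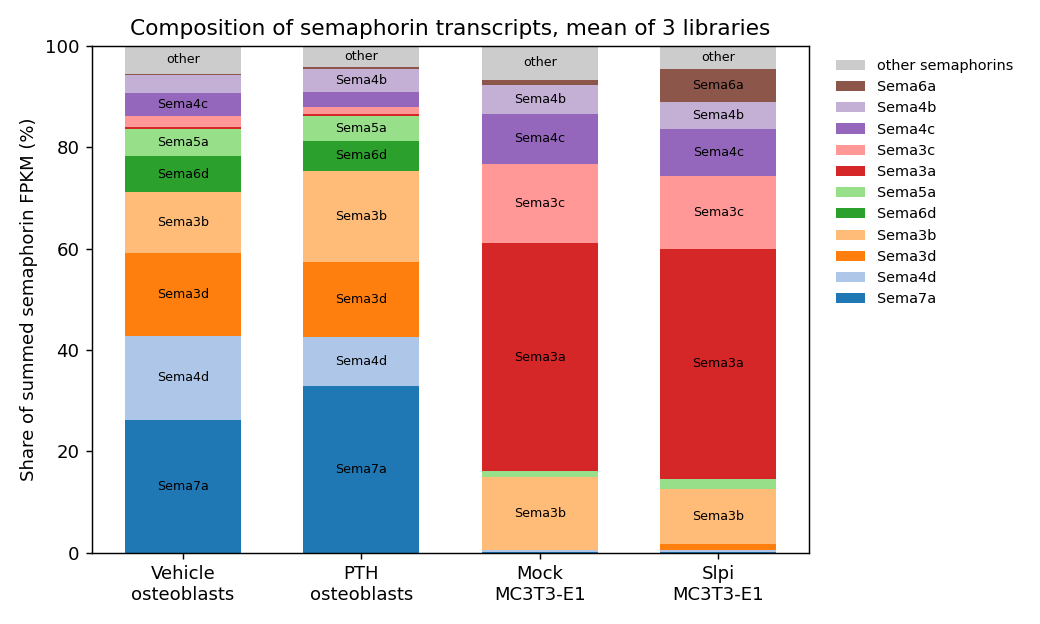
Share of each semaphorin in the summed semaphorin FPKM, in percent on the vertical axis, as the mean of 3 libraries for each of the 4 groups; genes not named in the key are added up as other semaphorins. *Sema7a* takes 26.1% and 32.9% in vehicle and PTH osteoblasts, whereas *Sema3a* takes 44.9% and 45.4% in mock and *Slpi* MC3T3-E1 cells.

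In *Slpi*-overexpressing MC3T3-E1 cells, *Sema6a*, *Nrp2* and *Sema3d* rose at least 2-fold, and no member fell as much. *Sema3d* entered the test through the *Slpi* libraries alone, so that it had to differ and nothing is read from the count of 3. Of all 11466 tested genes, 0.75% rose by this rule (2-fold or more, unadjusted *p* under 0.05) and 0.384% fell. At an adjusted *p* under 0.05, 7 members rose, *Sema3d* among them (36.8%, against 31.9% of all genes), and 6 fell (31.6%, against 28.9%), shares near those of all genes. The groups did not overlap for 7 members above mock, again with *Sema3d*, and 7 below (36.8% each, against 34.9% and 32.2% of all genes). The median log2 fold change of members was -0.02, against 0.00 over all genes. The plot of levels in MC3T3-E1 cells shows how tight the replicates were.

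**Figure D4:**
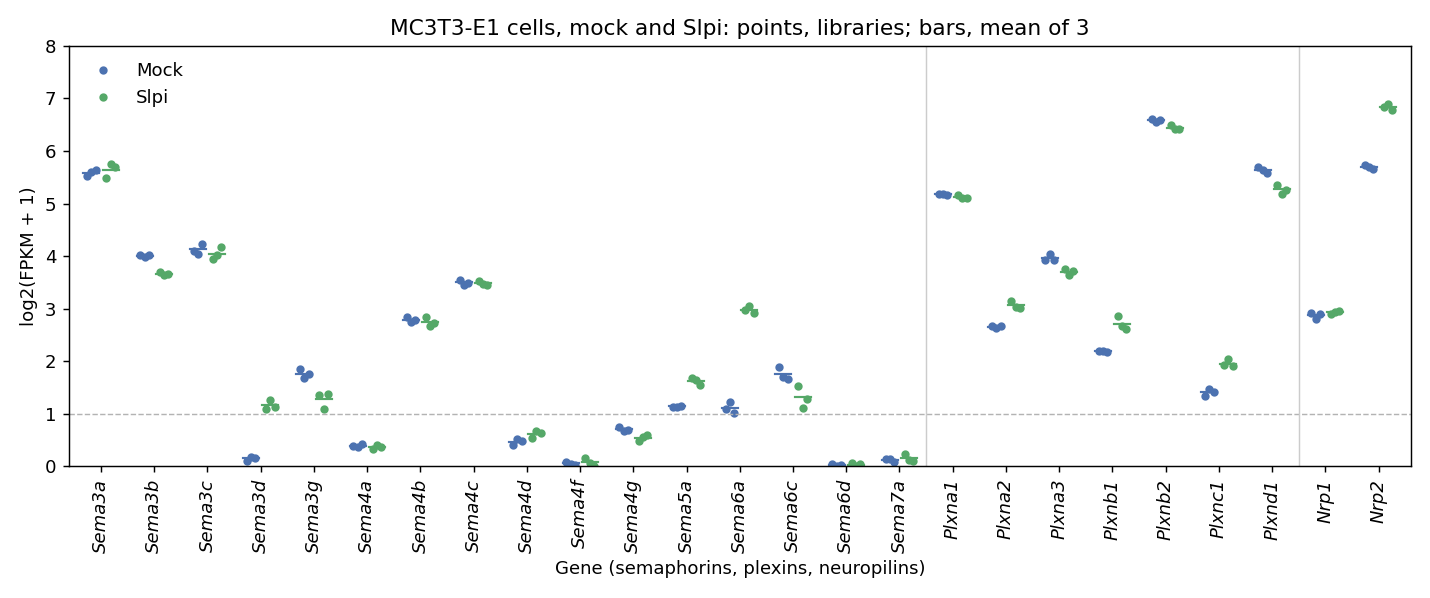
Levels of the same 25 genes in MC3T3-E1 cells, as log2(FPKM + 1) on the vertical axis, with 1 point per library, a bar at the mean of 3 libraries per group and a dashed line at an FPKM of 1. *Slpi* points stand far above mock points for *Sema6a*, *Nrp2* and *Sema3d*, and below them for *Plxnd1*, *Sema3b*, *Sema3g* and *Sema6c*.

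*Sema6a*, a membrane ligand of Plexin-A2, had the largest log2 fold change of FPKM + 1 among the members, while *Sema3d* had the larger ratio of mean FPKM. It was at 1.14, 1.32 and 1.01 FPKM in mock and at 6.81, 7.26 and 6.56 in *Slpi* cells. All *Slpi* libraries stood several times above mock, by 5.95 times in mean FPKM, and the log2 fold change was 1.87 (standard error 0.0717, adjusted *p* = 8.04e-07). It thereby moved from the ninth to the fifth place among semaphorins. *Sema3d* (chromosome 5, 12383385 to 12588948), a secreted ligand, was at 0.0770, 0.133 and 0.121 FPKM in mock and at 1.14, 1.40 and 1.17 in *Slpi* cells. It was below 1 in all mock libraries, far under the *Slpi* libraries. The log2 fold change was 1.01 (standard error 0.0872, adjusted *p* = 3.53e-05), which the pseudocount holds down, since mean FPKM differed 11.2 times. As only the *Slpi* libraries brought the gene into the test, nothing is read from this *p* value. The gene was far lower here than the 35.8 to 45.5 FPKM of sorted osteoblasts.

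*Nrp2* was at 52.1, 50.8 and 49.2 FPKM in mock and at 113, 119 and 109 in *Slpi* cells. The groups stood apart by far more than their spread, with a log2 fold change of 1.15 (standard error 0.0398, adjusted *p* = 5.25e-07). *Nrp1*, the main receptor of SEMA3A, overlapped between mock (5.93 to 6.56 FPKM) and *Slpi* cells (6.48 to 6.71), with a log2 fold change of 0.06 (95% interval -0.06 to 0.18). The genes tested within 5 Mb of these members had median log2 fold changes near 0, namely 0.04 around *Nrp2* (49 genes) and 0.06 around both *Sema6a* (21 genes) and *Sema3d* (11 genes).

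Among the other ligands, *Sema5a* (chromosome 15, 32244810 to 32696341) rose from 1.19, 1.19 and 1.23 to 2.18, 2.10 and 1.94 FPKM, a log2 fold change of 0.48 (adjusted *p* = 3.96e-04). *Sema3b* fell from 15.2, 14.8 and 15.2 to 12.02, 11.4 and 11.6 FPKM (log2 fold change -0.34, adjusted *p* = 1.35e-04), and groups were apart in both. A pair of low ligands fell as well. *Sema3g*, a ligand of NRP2, fell from 2.60, 2.19 and 2.38 to 1.55, 1.14 and 1.60 FPKM (log2 fold change -0.49, adjusted *p* = 0.00227). *Sema6c* fell from 2.68, 2.23 and 2.17 to 1.88, 1.17 and 1.44 FPKM (log2 fold change -0.44, adjusted *p* = 0.00949), without passing in an unmoderated model (adjusted *p* = 0.0598). The leading ligand *Sema3a* was at 44.9, 47.7 and 48.5 FPKM in mock and at 43.8, 52.7 and 51.0 in *Slpi* cells, overlapping, with a log2 fold change of 0.06 (95% interval -0.10 to 0.21). Without *Slpi* replicate 1 it passed at 0.14 (adjusted *p* = 0.0242). *Sema3c*, *Sema4b* and *Sema4c* had log2 fold changes of -0.08, -0.04 and -0.02, and the 95% intervals of these 3 lay between -0.24 and 0.09.

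The plexins moved in both directions. *Plxnc1* (chromosome 10, 94790866 to 94944835) rose from 1.52, 1.78 and 1.65 to 2.78, 3.10 and 2.73 FPKM, a log2 fold change of 0.55 (adjusted *p* = 2.55e-04). *Plxnb1* was at 3.58, 3.58 and 3.50 FPKM in mock and at 6.25, 5.38 and 5.09 in *Slpi* cells, a log2 fold change of 0.53 (adjusted *p* = 3.12e-04). *Plxna2*, a receptor of SEMA6A, was at 5.38, 5.20 and 5.33 FPKM in mock and at 7.79, 7.19 and 7.11 in *Slpi* cells, a log2 fold change of 0.41 (adjusted *p* = 2.04e-04). In all 3 the groups were apart, and these are the tested plexins with the lowest FPKM. Of the other 4, which are more abundant, 3 fell. *Plxnd1* (chromosome 6, 115954811 to 115995005) fell from 50.7, 48.5 and 47.1 to 40.0, 35.5 and 37.5 FPKM (log2 fold change -0.37, adjusted *p* = 3.24e-04). *Plxna3* fell from 14.2, 15.5 and 14.1 to 12.4, 11.5 and 12.2 FPKM (log2 fold change -0.26, adjusted *p* = 0.00215), and *Plxnb2* from 96.2, 93.4 and 95.3 to 89.3, 85.1 and 84.3 FPKM (log2 fold change -0.14, adjusted *p* = 0.00719). *Plxna1* was at 34.9 to 35.4 FPKM in mock and at 33.2 to 34.8 in *Slpi* cells (log2 fold change -0.06, adjusted *p* = 0.173), and passed with quantile normalization (-0.11, adjusted *p* = 0.0242) and with FPKM rescaled to one sum (-0.15, adjusted *p* = 0.00390). The plexin sum was 204 ± 2.61 FPKM in mock and 186 ± 6.89 in *Slpi* cells (SD, n = 3 each).

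Side by side, *Plxnb1* was higher under both treatments, with log2 fold changes of 0.80 with PTH and 0.53 with *Slpi*. *Plxnb2* and *Sema3b* were higher with PTH (0.81 and 0.82) and lower in *Slpi* cells (-0.14 and -0.34). *Nrp2* had 0.21 with PTH, not passing, and 1.15 with *Slpi*. *Sema7a*, which rose in sorted osteoblasts, was too low for a test in MC3T3-E1 cells. Differences between the experiments were not tested.

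Genes that work with these receptors were counted in 3 lists, at an adjusted *p* under 0.05, which 6.38% of all tested genes passed upwards and 8.85% downwards with PTH. At an unadjusted *p* under 0.05, 2077 of the 13004 tested genes were higher and 2276 lower with PTH. Of 9 tested co-receptors and other semaphorin receptors, 2 rose with PTH and 0 fell in limma (5 and 0 at an unadjusted *p* under 0.05), with a median log2 fold change of 0.42. They were *Sdc3*, a heparan sulfate proteoglycan, at 59.9, 58.7 and 68.7 FPKM with vehicle and 97.0, 86.3 and 125 with PTH (log2 fold change 0.70), and *Ptk7*, a receptor pseudokinase (0.67). Of 7 ligands that share neuropilins, 2 rose and 0 fell (3 and 0 at an unadjusted *p* under 0.05), with a median of 0.15. *Vegfa*, the vascular growth factor that binds neuropilins, was at 114, 109 and 130 FPKM with vehicle and at 157, 196 and 204 with PTH, a log2 fold change of 0.65 (adjusted *p* = 0.0251), and *Tgfb1* rose by 0.68 on the log2 scale. Every PTH library was above every vehicle library for these 4 genes.

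Of 20 plexin signalling partners 2 rose with PTH, *Micall1* (log2 fold change 0.57) and the actin-oxidizing enzyme gene *Mical2* (0.53), and 2 fell, *Tiam1* (-1.04) and *Sh3bp1* (-0.83), which encode an activator and an inactivator of the GTPase Rac. At an unadjusted *p* under 0.05 the counts were 6 and 4, and the median of this list was 0.15. The 2 calls in each direction among 20 genes are near the shares of all genes. T and NK lymphocyte markers were lower with PTH as well, and their part in the *Tiam1* and *Sh3bp1* values was not tested. As with the members, each of the 8 genes named from these lists lost its call without vehicle replicate 1 or 2.

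In *Slpi* cells, where 31.9% of all tested genes were higher and 28.9% lower at an adjusted *p* under 0.05, 2 of 9 co-receptors rose and 4 fell, with a median log2 fold change of -0.09. The proteoglycan gene *Cspg4* rose from 10.1, 10.5 and 10.6 to 20.3, 18.9 and 18.0 FPKM (log2 fold change 0.82) and *Sdc3* by 0.30 on the log2 scale, while the integrin gene *Itga1* (-0.55) and the receptor kinase gene *Met* (-0.54) fell most. *Met*, among the 4, was at 1.527, 1.762 and 1.725 FPKM in mock and at 0.816, 0.822 and 0.878 in *Slpi* cells. It passed the filter through the mock libraries alone, so that it had to differ and nothing is read from its fall. Of 6 ligands that share neuropilins, 1 rose, *Tgfb3* (0.10), and 3 fell, *Vegfb* (-0.33) and *Tgfb2* (-0.33) the most, with a median of -0.15. The call of *Tgfb3* ended with quantile normalization, with rescaling, without the trend in variance and without any of 4 libraries (mock replicate 1 or 2, *Slpi* replicate 1 or 3). Of 19 signalling partners, 3 rose and 8 fell, with a median of -0.08. *Farp2*, an exchange factor that binds A-class plexins, had a log2 fold change of 0.60, *Arhgef12*, which encodes an exchange factor bound by B-class plexins, had 0.14, and *Fes* (-0.58) and *Mical1* (-0.57) fell most. The groups did not overlap for any gene named from these lists, and the call of *Arhgef12* ended with rescaling and without mock replicate 3.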

How the data were processed

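RNA-Seq libraries were analysed, 3 per group, from sorted osteoblasts (vehicle and PTH) and from MC3T3-E1 cells (mock and *Slpi*). The authors deposited FPKM per gene and library. According to the methods and the submitters' processing notes, single-end reads were mapped to mm10 with TopHat 2.0.13, Bowtie2 2.2.3 and SAMtools 0.1.19, and FPKM were calculated with Cuffnorm of Cufflinks 2.2.1. The gene annotation and the scaling option are not given in the sources used here. The labels give the SMART-Seq v4 kit for sorted osteoblasts and a TruSeq stranded kit for MC3T3-E1 cells, whereas the methods give SMART-Seq for both. FPKM give no number of reads, so that no counting interval can be stated.

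Members were the gene symbols of the 3 families. Members, lists of pathway genes and lists of markers (osteoblast, lymphocyte, mast cell, endothelial, macrophage, neutrophil, platelet, osteoclast, erythroid, cardiac, glial and stromal) were chosen with earlier results of these data known. A gene was tested in an experiment where any of its 6 libraries reached an FPKM of 1, which left 13004 and 11466 genes. The test was that of limma, version 3.58.1 (R version 4.3.3), on log2(FPKM + 1), with moderated variances that follow a trend on the mean, and set 3 libraries against 3. The fold changes are on this scale, which understates changes of low genes. Adjusted *p* values are those of Benjamini and Hochberg over all tested genes. From each pathway list the 2 largest rises and falls past an adjusted *p* of 0.05 are named. The code was tested on simulated data. Other steps ran in Python 3.11.15 (pandas 2.3.3, numpy 2.4.6, scipy 1.17.1). Positions are from GENCODE M21 (GRCm38), and promoters from RefSeq. Alternatives were a replicate block, a filter on the mean FPKM (1 or more) or none, an unmoderated model, a moderated one lacking the trend, a pseudocount of 0.1, quantile normalization, rescaling of FPKM to one sum, and leaving out each library. All libraries entered the reported values. A further list of pathway genes is not reported here.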

Additional observations from a re-analysis of the deposited data

How the results depend on the processing

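Under every alternative run, no called value changed sign. With PTH, 830 higher and 1151 lower genes became 517 higher without a filter, 529 and 1149 with FPKM rescaled to one sum, 0 and 1 in an unmoderated model (1781 and 2042 at an unadjusted *p* under 0.05), and 0 to 674 and 0 to 895 with 1 library left out, the lowest without vehicle replicates 1 and 2. The 161 and 566 genes at least 2-fold changed became 362 and 937 with a pseudocount of 0.1, 228 and 471 with quantile normalization, and 881 lower with rescaling. The 5 higher members became 1 without a filter, 1 with no trend, 0 unmoderated and 3 rescaled (*Plxnb1* and *Sema7a* lost), and 0 to 5 with 1 library left out; *Sema4d* became 1 lower member with quantile normalization (where *Sema7a* lost its call) and with rescaling, and 0 to 1 were lower with 1 library left out. With *Slpi*, 3658 and 3315 genes became 2430 and 4438 with rescaling, and the 86 and 44 genes at least 2-fold changed became 137 and 129 with a pseudocount of 0.1 and 86 and 97 with rescaling. The 7 and 6 members stayed within 1.5 times. The causes were not tested. By the labels, same-numbered libraries share only a number. Their deviations correlated at 0.0294, 0.0735 and 0.102 in sorted osteoblasts and at 0.0385, -0.0523 and -0.000264 in MC3T3-E1 cells. In MC3T3-E1 cells mock replicate 2 correlated best with *Slpi* replicate 1 (0.0715) and mock replicate 3 with *Slpi* replicate 2 (0.105). Such small correlations cannot decide whether libraries were paired. In sorted osteoblasts every vehicle library correlated best with its own number, a hint from the data and not from the design, but PTH replicate 1 did so with vehicle replicate 2 (0.0688). With the replicate block, 1028 and 1234 genes were called with PTH and 3752 and 3420 with *Slpi*, *Plxna1* was called with PTH (adjusted *p* = 0.0305) and *Sema4b* was not (0.0547), and no other member changed its call. Precision is limited by 3 libraries per group and by an unknown depth.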

Other observations

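Members below the filter could be fitted only without it. In that limma fit, *Sema3e*, the ligand of Plexin-D1, was at 0.260, 0.226 and 0.281 FPKM in mock and at 0.490, 0.563 and 0.614 in *Slpi* cells, a log2 fold change of FPKM + 1 of 0.31 (adjusted *p* = 0.00104), and it lies near *Sema3d* and *Sema3a* on chromosome 5. *Sema4d* had a log2 fold change of 0.15 (adjusted *p* = 0.0461) and *Sema4g* of -0.16 (adjusted *p* = 0.0157) in the same cells, both from levels under 1 FPKM. With PTH, *Sema6a* had a log2 fold change of 0.41 in the fit without a filter (adjusted *p* = 0.0790), with all PTH libraries above all vehicle libraries. These genes were chosen for mention after their values were seen.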
